A study of Homo sapiens with 2 samples.

Results

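The strong HA-RFX6 ChIP-seq intervals at single coding gene ends of the MHCC-97H line, which derives from human hepatocellular carcinoma (HCC), were examined. An interval is 1 distinct region of the deposited peak list, and its score is the whole number printed on its line, which ranks regions within the list and whose definition is not given in the sources used here. Members were chosen by score and position. The midpoint had to lie within 1 kb of an end of exactly 1 protein-coding gene, and the score had to be 40 or more. Of 5022 distinct intervals, 4994 lay on chromosomes 1 to 22, 2488 of these lay at the end of exactly 1 coding gene, and 725 of those reached the score. The 725 strong intervals lay at 698 of 19126 coding genes, so that 3.65% of the coding genes had one. The remaining 1763 intervals at single gene ends, at 1597 genes, scored under 40 and are called weaker intervals here, and 547 other intervals lay at ends of 2 or more coding genes.

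The study sequenced 1 ChIP library from MHCC-97H cells overexpressing HA-tagged RFX6 and 1 input library from the same line, and the anti-HA precipitate is the source of all peaks described here. No library of cells without the tagged protein was analysed here. As there was no replicate and the depth of sequencing is unknown, no replicate error or p-value is given. Intervals in brackets are 95% Wilson intervals, which cover the counting of regions or genes only. RFX6 was overexpressed, and its peaks may differ from those of the endogenous protein, which was not tested. A peak list holds no expression values, so the identity of the cells could not be checked against marker genes.

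RFX6 is one of the regulatory factors X (RFX), transcription factors that share a winged-helix DNA-binding domain. Family members bind the X-box, an inverted repeat whose arms read GTTGCC on 1 strand, and several of them control genes of cilia or, in the case of RFX5, of antigen presentation. RFX6 itself is known for its part in the development of pancreatic islet cells. Many promoters of broadly expressed genes lie in CpG islands and carry GC boxes, the short elements recognised by SP and KLF zinc finger factors.

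Promoter sequences are shown for 4 of the highest-scoring members whose interval overlapped a RefSeq promoter window, because they show the base composition that the members shared. They are the 250 bases before the listed start site (RefSeq, GRCh38.p14), written in the direction of the gene, with each GC box (GGGCGG or its reverse complement CCGCCC) in capitals. OGG1, a glycosylase that removes oxidised guanine from DNA, is shown at chr3:9749702-9749951 on the plus strand. PAIP1, a partner of the poly(A)-binding protein in translation, is at chr5:43557078-43557327 on the minus strand. MAP7, a microtubule-associated protein, is at chr6:136550423-136550672 on the minus strand. SNF8, a subunit of an endosomal sorting complex, is at chr17:48944843-48945092 on the minus strand.
OGG1: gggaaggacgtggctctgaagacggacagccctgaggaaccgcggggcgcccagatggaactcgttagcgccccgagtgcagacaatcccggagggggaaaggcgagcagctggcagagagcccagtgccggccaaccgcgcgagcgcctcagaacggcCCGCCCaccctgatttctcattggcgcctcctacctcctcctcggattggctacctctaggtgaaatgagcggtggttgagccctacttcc
PAIP1: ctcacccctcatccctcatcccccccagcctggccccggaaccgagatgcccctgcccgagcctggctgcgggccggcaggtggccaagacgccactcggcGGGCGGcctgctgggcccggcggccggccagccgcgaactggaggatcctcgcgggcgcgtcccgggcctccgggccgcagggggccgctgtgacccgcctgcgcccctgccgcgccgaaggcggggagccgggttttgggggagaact
MAP7: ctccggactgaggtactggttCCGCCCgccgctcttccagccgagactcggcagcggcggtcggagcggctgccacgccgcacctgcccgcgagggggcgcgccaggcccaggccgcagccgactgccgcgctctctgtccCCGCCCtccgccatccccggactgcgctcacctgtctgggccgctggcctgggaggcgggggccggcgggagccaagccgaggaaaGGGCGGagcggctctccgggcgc
SNF8: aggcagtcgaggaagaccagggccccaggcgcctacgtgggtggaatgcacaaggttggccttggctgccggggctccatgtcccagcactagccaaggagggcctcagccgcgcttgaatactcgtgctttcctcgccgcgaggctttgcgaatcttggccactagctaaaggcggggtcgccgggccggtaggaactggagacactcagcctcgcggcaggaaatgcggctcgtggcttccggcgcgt

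These 4 sequences were 64.8%, 78%, 77.6% and 65.2% G or C, respectively. They held 1, 1, 3 and 0 GC boxes. OGG1 contained 20 CpG dinucleotides, PAIP1 29, MAP7 33 and SNF8 22. None of the 4 windows had a match to the X-box arm GTTGCC.

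A full X-box was sought as GTTNCC followed after 0 to 3 bases by GGNAAC, where N is any base. It was found in the promoter windows of 5 members, and the promoters of the 3 with the highest scores are shown with the element in capitals. These are PDCD6, a calcium-binding protein, at chr5:271396-271645 on the plus strand, CHLSN at chr7:1138258-1138507 on the minus strand, and ITFG2, a subunit of a regulator of nutrient signalling, at chr12:2812418-2812667 on the plus strand (RefSeq, GRCh38.p14).
PDCD6: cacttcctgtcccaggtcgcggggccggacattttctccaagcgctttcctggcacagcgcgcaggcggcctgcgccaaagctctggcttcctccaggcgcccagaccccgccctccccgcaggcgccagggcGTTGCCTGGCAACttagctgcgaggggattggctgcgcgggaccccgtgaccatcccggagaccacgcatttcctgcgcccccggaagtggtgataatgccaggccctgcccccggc
CHLSN: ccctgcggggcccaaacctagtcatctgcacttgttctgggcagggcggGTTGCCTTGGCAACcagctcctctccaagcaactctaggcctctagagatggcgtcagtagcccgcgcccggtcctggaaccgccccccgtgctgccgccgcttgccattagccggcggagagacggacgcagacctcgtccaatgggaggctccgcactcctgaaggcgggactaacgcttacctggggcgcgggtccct
ITFG2: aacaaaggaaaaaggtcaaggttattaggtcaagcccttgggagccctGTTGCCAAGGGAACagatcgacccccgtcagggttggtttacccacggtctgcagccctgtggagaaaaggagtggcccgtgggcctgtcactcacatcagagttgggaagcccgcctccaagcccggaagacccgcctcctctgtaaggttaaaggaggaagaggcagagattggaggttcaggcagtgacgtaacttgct

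The element itself is given for all 5 members, including COPS3, a subunit of the COP9 signalosome, and FBXL14, an F-box protein of ubiquitin ligases, in the direction of the gene and with the arms in capitals.
PDCD6 element: GTTGCCtGGCAAC
CHLSN element: GTTGCCttGGCAAC
ITFG2 element: GTTGCCaaGGGAAC
COPS3 element: GTTTCCatGGAAAC
FBXL14 element: GTTTCCagGGCAAC

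PDCD6 and CHLSN carried both arms in their perfect form, GTTGCC and GGCAAC. The PDCD6 element (chr5:271529-271541) began 117 bases before the start site and lay inside the interval, which scored 95. The CHLSN element (chr7:1138445-1138458) began 201 bases before the start site, also inside an interval, which scored 87. At FBXL14, where the interval scored 50, the element (chr12:1594900-1594913) overlapped the edge of the interval by 8 of its 14 bases. In contrast, the elements of ITFG2 (chr12:2812466-2812479) and COPS3 (chr17:17281351-17281364) lay outside the intervals, which scored 76 and 56. Thus 2 of the 5 full X-boxes lay wholly inside the region that was called.

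To ask which sequence elements the members shared, 16 motifs were searched on both strands of promoter windows running from 250 bases before to 50 bases after a start site. No sequence outside these windows was available, so the intervals themselves were not searched. Of the 725 members, 424 overlapped such a window. The windows at these members were set beside 895 windows at weaker intervals and all 21156 windows of coding genes. Motif shares at members are shares of these 424 intervals, each with its nearest window. A window overlapped by several members, as at BRAT1, is counted for each of them. The sequence was not used to choose the members. The X-box half-site GTTGCC was present at 46 members, or 10.8% (8.23% to 14.2%), compared with 11.96% at weaker intervals and 12.5% of all windows. With 1 free base (GTTNCC), which includes the former, the shares were 41.3%, 44.6% and 45.9%. The longer GTTGCCA was found at 2.59% of members and in 3.98% of all windows. The full X-box, which overlaps these arms, was found at 5 members, or 1.18% (0.505% to 2.73%), beside 0.447% at weaker intervals and 0.841% of all windows. For each form of the X-box, the share of all windows lay inside the interval of the members. A half-site of the window lay inside the called region at 27 of the 424 members (6.37%, 4.41% to 9.11%). The parts of called regions outside the windows were not read, so this is a lowest count. No such share is given for weaker intervals. A match is a run of letters and does not show binding, and the absence of a match says only that the letters are not in the window.

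Elements of GC-rich promoters were also examined. The GC box (GGGCGG) was found at 360 members, or 84.9% (81.2% to 88.0%), compared with 83.1% at weaker intervals and 56.6% of all windows. In the 12386 windows that were at least 60% G or C, the share was 80.5%. The ETS site CCGGAAG was present at 20.5% of members (16.9% to 24.6%), 18.4% of weaker intervals, 12.9% of all windows and 16.1% of the GC-rich ones. It was found at 30.03% of the windows at ends of 2 or more coding genes. Here and below, each of those intervals is represented by the gene with the nearest start. TGCGCA, the core bound by NRF1, was found at 15.3% of members (12.2% to 19.1%) and in 9.68% of all windows, but in 12.8% of the GC-rich windows and at 12.7% of weaker intervals, both inside the interval of the members. ATGGCG, bound by YY1, was found at 21.0% of members (17.4% to 25.1%), 19.8% of weaker intervals, 13.1% of all windows and 16.2% of the GC-rich ones. The core of the cAMP response element (TGACG) was present at 41.0% of members (36.5% to 45.8%), 35.1% of weaker intervals, 27.7% of all windows and 31.8% of the GC-rich ones. The complete palindromic element, made of this core and its reverse complement CGTCA sharing the central CG, was rare in both members (2.83%) and all windows (2.31%). CCAAT, bound by NF-Y, was present at 34.4% of members (30.1% to 39.1%), 35.3% of weaker intervals and 34.4% of all windows, but in 29.7% of the GC-rich windows, which was below the interval of the members.

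CACGTG, the E-box, was found at 10.4% of members (7.82% to 13.6%), 10.8% of weaker intervals, 8.25% of all windows and 10.2% of the GC-rich ones. A core described for ZBTB33, CTCG followed by its reverse complement CGAG, was present at 2.83% of members (1.63% to 4.88%) and 2.35% of weaker intervals. It was in 1.38% of all windows and 1.87% of the GC-rich ones. ACTACAA, a part of the ZNF143 element, was present at 4.48% of members (2.89% to 6.89%), 3.24% of weaker intervals, 2.89% of all windows and 2.52% of the GC-rich ones. TGANTCA, the AP-1 site, was found at 3.07% of members, at 2.91% of weaker intervals and in 6.08% of all windows, but in 3.35% of the GC-rich ones. Windows at members had a median GC content of 70% (quartiles 65% and 74.7%), weaker intervals had 70.3%, and all windows 62.7%. The ratio of observed to expected CpG had a median of 0.903 at members and 0.743 in all windows.

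**Figure D1:**
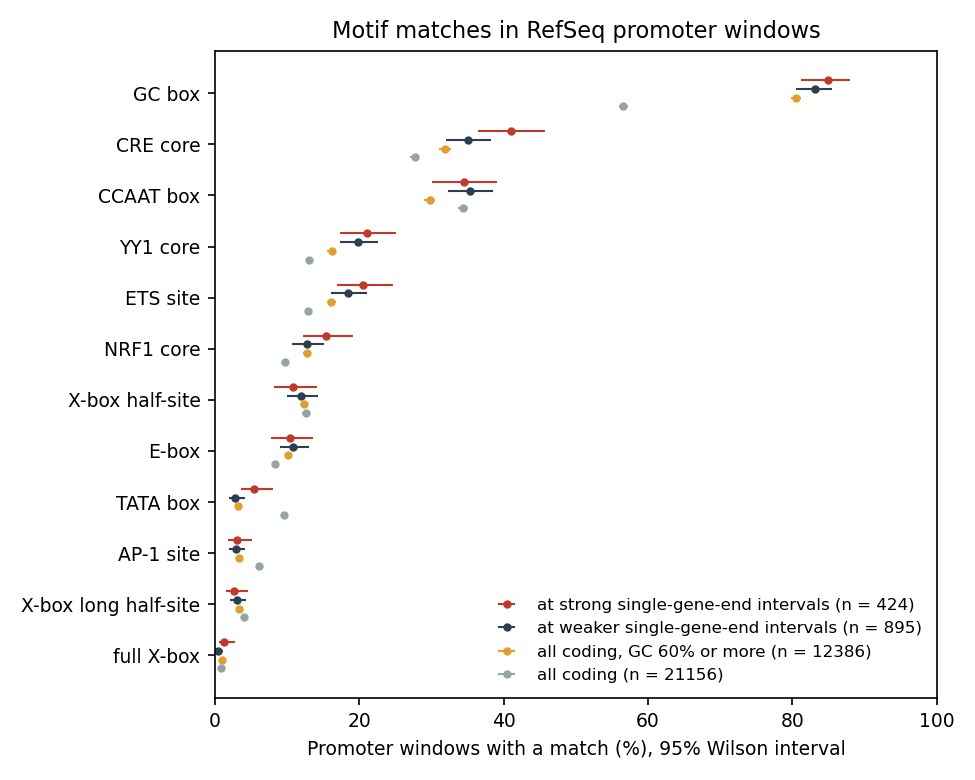
Share of promoter windows (%) with at least 1 match to each of 12 motifs, at members (red), at weaker single-gene-end intervals (dark blue), in coding windows of 60% GC or more (orange) and in all coding windows (grey), with 95% Wilson intervals as bars. The GC box was found at 84.9% of members against 56.6% of all windows, while the X-box half-site was found at 10.8% against 12.5%.

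The same relation was read from the side of the promoters. A strong interval overlapped 482 of the 21156 windows, or 2.28%. Of the windows with a GC box, 3.42% (3.11% to 3.76%) were overlapped, compared with 0.795% (0.632% to 0.998%) of those without. Of the windows with an X-box half-site 2.15% were overlapped, and of those without 2.30%. The share rose with GC content, from 0.121% of windows under 50% GC to 0.863% between 50% and 60%, 2.80% between 60% and 70%, and 4.45% between 70% and 80%. Windows of 80% GC or more were overlapped in 4.20% of cases (2.97% to 5.90%). Intervals of any score on chromosomes 1 to 22 overlapped 15.5% of windows with a GC box and 4.60% of those without. They overlapped 0.314% of windows under 50% GC and 20.3% of those between 70% and 80%. Base composition therefore moved with the presence of an interval of any score, not of a strong one alone. Its part in the motif shares was not separated beyond the GC-rich windows given above.

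Next, the position relative to the start of the gene was examined, as the choice of members took either end of a gene. A start site was listed for the genes of 565 members, and the other 160 could not be placed. Of the 565, 552 lay at the start end, which was 97.7% (96.1% to 98.7%), and 13 lay at the far end (2.30%, 1.35% to 3.90%). At weaker intervals, 95.8% lay at the start end (94.7% to 96.7%). At ends of 2 or more coding genes it was 93.2% (90.7% to 95.1%), taking for each interval the gene with the nearest start. That choice by itself raises the share. The midpoint was within 100 bp of a listed start site for 30.6% of members, within 250 bp for 65.7% and within 500 bp for 87.1%. The corresponding shares of weaker intervals were 25.8%, 61.5% and 83.0%. Among the 540 members within 1 kb of a start site, the median position was 38.5 bp into the gene, with quartiles at -147.75 and 170.375 bp, and 311 midpoints (57.6%) lay after it. The fullest bin, from 0 to 100 bp into the gene, held 108 of the 540. Members covered the start site in 276 of 565 cases (48.8%, 44.7% to 53.0%), and weaker intervals in 37.9% (35.4% to 40.5%). Members were also wider, which by itself raises the chance of covering a given base.

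**Figure D2:**
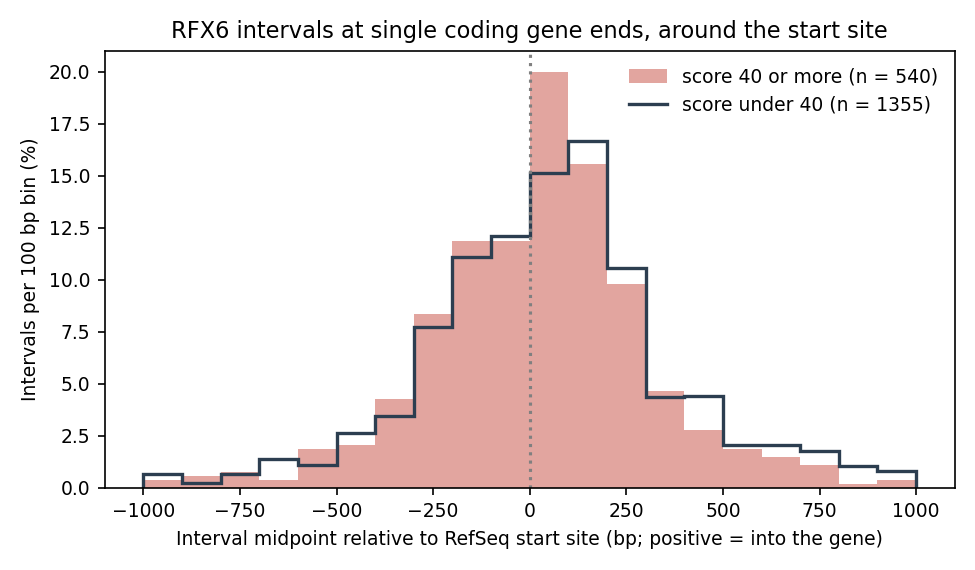
Position of interval midpoints relative to the RefSeq start site (bp, positive into the gene) in bins of 100 bp, as the share of the 540 members (red) and of the 1355 weaker intervals (dark line) within 1 kb of a start site. Both sets were centred near the start, and the fullest bin of the members ran from 0 to 100 bp.

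The 13 members at far ends were inspected one by one. The highest scores were 80 at EXOC3L4, 79 at SFN, which encodes the adaptor protein stratifin, 69 at LOC124902602 and 65 at CLDN4, a tight junction protein. Several of these genes are short, with a length of 1142 bp for LOC124902602, 1308 bp for SFN, 1695 bp for CLDN4 and 1929 bp for JUND, a subunit of AP-1. At such genes the far end is close to the start. At SFN the midpoint was 2028 bp from the start site and at JUND 1114 bp. At the histone gene H3C4, with a score of 42, it was only 147.5 bp from a listed start site. EXOC3L4, TAPBP and HPD were longer, with midpoints 15396, 14036 and 19198.5 bp from the start. The others were NRM (63), TRMT61A (56), MIDN (55), ZBTB45 (55) and FOXC1 (40). NRM, TRMT61A and FOXC1 had another member at the start.

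A further 13 members lay at the start end of the gene record but more than 1 kb from a start site in the promoter table. They included TRAF2, an adaptor of tumour necrosis factor receptors, with a score of 84 and a midpoint at -4146 bp from the site, NPAS2 with 78 and CROCC with 77. The farthest were ANO6 and DNAH5, with midpoints at -76789.5 and -67078 bp, so that the listed site lay further into the gene. Since the interval was within 200 bp of the outer end of both genes, the listed site may not be the outermost start, and which start is used in these cells was not measured. Of all 725 members, 461 midpoints lay inside the gene (63.6%, 60.02% to 67.0%), compared with 64.4% of weaker intervals. An end of a non-coding gene was also within 1 kb of 170 members (23.4%), compared with 21.2% of weaker intervals. Among these, a gene named as a divergent transcript (symbol ending in -DT) lay at 27 members (3.72% of the 725). One named as antisense (-AS) lay at 43 (5.93%). These counts rest on the symbol alone, and the strand and the partner gene were not checked. The corresponding shares of weaker intervals were 4.20% and 4.14%. Single thus refers to coding genes only.

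Scores, widths and line numbers come from the same peak call as the choice of members and are given as a description. Scores ran from 40 to 126, with a median of 52 and quartiles of 45 and 61. Just inside the threshold, 28 members scored 40 and 15 scored 41, and just outside it 100 intervals scored 39 and 35 scored 38. Weaker intervals had a median score of 27 (13 to 39), and intervals at ends of 2 or more coding genes a median of 32 and a maximum of 90.

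KAT6A, a histone acetyltransferase gene, had the highest score, 126, in an interval of 302 bp. OGG1 followed with 118 and LRP6, a co-receptor of the Wnt pathway, with 113. Both were listed on 2 lines with unequal scores, the lower ones being 45 and 17. PAIP1 had scores of 106 and 62 on 2 lines. The interval at PAIP1 was 838 bp wide and centred 43 bp before the start, and that at OGG1 was 782 bp wide and centred 20 bp before it. MAP7 scored 105, with a midpoint 34.5 bp into the gene. RAB11FIP1, an effector of the recycling endosome, scored 104. At KIF21A, a kinesin motor, the interval (chr12:39443258-39443708, GRCh38) scored 102 and was centred 362.5 bp before the start. SNF8 (chr17:48944582-48944941) also scored 102 and was centred 81 bp into the gene.

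SPATA2, which links a deubiquitinase to the linear ubiquitin ligase complex, scored 100 on 1 line and 21 on the other (chr20:49915380-49916030, GRCh38). NBPF1 scored 99, but it belongs to a family of near-identical copies, and how reads matching several places were treated is not given in the sources used here. SLC4A7, a sodium bicarbonate transporter, had the close scores of 98 and 93 on 2 lines (chr3:27483991-27484688). NQO2, a quinone reductase, and LANCL2 each scored 96, and the LANCL2 midpoint was 834.5 bp inside the gene end, the farthest of the 20 members with the highest scores. PDCD6 (chr5:271382-272007) scored 95, as did TEAD4 (chr12:2958828-2960127), the DNA-binding partner of the Hippo effector YAP. The list was completed by BRAT1 (93), SPATS2 (92), ULK4 (91), ASB6 (91) and PATL1 (90), a factor of mRNA decay. For 3 of the 20 genes, namely SPATA2, LRP6 and TEAD4, the lowest line scored under 30.

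Width moved with score within the members. The median width was 303 bp for the 304 members scoring 40 to 49, 373 bp for the 323 scoring 50 to 69, and 475.5 bp for the 98 scoring 70 or more. Over all members it was 354 bp (quartiles 263 and 509 bp), compared with 265 bp for weaker intervals. The widest were at TEAD4 (1300 bp), WRNIP1 (1137 bp), the zinc finger gene ZBTB2 (1126 bp), PRKAA1 (1080 bp), a catalytic subunit of AMP-activated protein kinase, and FEM1B (997 bp). All 725 together covered 294.106 kb. The start site was covered by 41.8% of members scoring 40 to 49, by 53.9% of those scoring 50 to 69 and by 56% of those above.

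**Figure D3:**
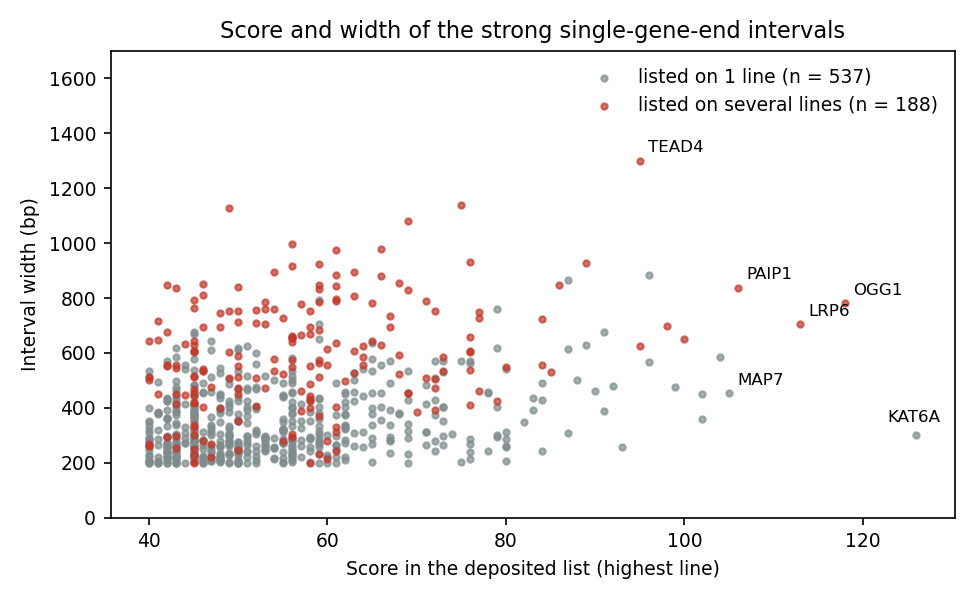
Width (bp) against score for the 725 members, with those listed on 1 line in grey and those listed on several lines in red, and with the highest-scoring genes and the widest one named. KAT6A had the highest score (126) at a width of 302 bp, and TEAD4 the largest width (1300 bp) at a score of 95.

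Of the 725 members, 188 were listed on several lines (25.9%, 22.9% to 29.2%), compared with 18.0% of weaker intervals (16.3% to 19.8%) and 31.6% of intervals at ends of 2 or more coding genes. Their lines carried unequal scores at 140 members (19.3%), compared with 8.17% of weaker intervals. As the highest line was kept, a region with unequal lines could reach the threshold through any of them. This difference is therefore in part built into the choice of members. CDKN2B, an inhibitor of the cyclin D kinases, was listed on 9 lines with a highest score of 42. COBLL1 and MTHFS were each listed on 6. A group of genes tied at 4 lines, among them TEAD4, BHLHE40 and HEXIM1.

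More than 1 strong interval was found at 26 of the 698 genes, compared with more than 1 weaker interval at 154 of 1597 genes. ANKRD28 had 3, scoring between 46 and 52, and the other 25 had 2. The gap between neighbours had a median of 160.5 bp and ranged from 49 bp at RPS14, a ribosomal protein, to 7757 bp at TRMT61A, a tRNA methyltransferase subunit. At BRAT1 the scores were 93 and 62 with a gap of 85 bp. SKP1, a core subunit of SCF ubiquitin ligases, had scores of 76 and 45, and TUBB4B, a tubulin, 75 and 56. QRICH1 had 69 and 66, and ARHGEF17 62 and 61. At SAV1, an adaptor of the Hippo kinases, they were 56 and 53, and at CTNNBIP1, an inhibitor of beta-catenin, 56 and 43. The wide gaps of FOXC1 (4367 bp), NRM (3140 bp) and TRMT61A separated the start from the far end. The remaining genes were ZFR, LPCAT1, IPO13, TBC1D2B, AZIN1, TENT4A, PDIK1L, UBE2Q2, CAVIN3, PGD, FBXL14, SKIL, KRT7 and ATP2B1. PGD, of the pentose phosphate pathway, had scores of 51 and 46.

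The functions of the members were then described with 19 gene lists written from general knowledge. The share of listed genes with a strong interval is read against the 3.65% of all coding genes. Weaker intervals lay at 1597 of the 19126 coding genes. The lists are a description of this peak list, no enrichment test was made, and genes are not replicates. The study had named the Hippo, MAPK and metabolic pathways in an analysis joining these peaks with RNA-seq data. Lists drawn from these pathways are therefore not independent evidence.

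Signalling lists were among those with the largest shares. The Hippo pathway, a kinase cascade that restrains YAP, had a strong interval at 7 of 46 genes (15.2%, 7.57% to 28.2%). Its 3 highest were TEAD4 (95), the kinase gene TAOK3 (72) and SAV1 (56), and the others were MAP4K3, PALS1, PTPN14 and WWC1. The Wnt pathway followed with 10 of 84 genes (11.9%, 6.60% to 20.5%), headed by the co-receptor LRP6 (113), the ligand WNT4 (72) and the casein kinase CSNK1G1 (63). GSK3B, the kinase that marks beta-catenin for degradation, scored 41. The MAP kinase cascade had 8 of 73 genes (10.96%, 5.66% to 20.2%). Among them, the phosphatase DUSP16 scored 58, the kinases MAP3K2 and MKNK2 57 each, and SPRY4, a feedback inhibitor, 42.

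Genes of the nucleus formed the next group. Cell cycle genes were members at 10 of 99 (10.1%, 5.58% to 17.6%), with CDC25A, a phosphatase that activates cyclin-dependent kinases, at 67, the cohesin regulator PDS5A at 65 and E2F1 at 62. DNA repair genes were members at 9 of 90 (10%, 5.35% to 17.9%). OGG1 stood far above FANCI (50) and ATR, RNF8 and RAD23B, which scored 45 each. Of 98 chromatin regulators 9 were members (9.18%, 4.91% to 16.5%), headed by KAT6A (126), the deacetylase HDAC2 (59) and the remodeller INO80 (59), and EZH2 scored 56. Weaker intervals lay at 9 of the 46 Hippo, 11 of the 84 Wnt and 19 of the 73 MAP kinase genes. They lay at 22 of the 99 cell cycle, 14 of the 90 DNA repair and 20 of the 98 chromatin genes. Each of these shares was above that of weaker intervals over all coding genes. Raised shares were therefore not particular to the strong intervals.

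The larger lists of housekeeping functions had smaller shares. Vesicle traffic had 20 of 286 genes (6.99%, 4.57% to 10.6%), with RAB11FIP1 at 104, SEC24A, a coat protein of transport from the endoplasmic reticulum, at 83 and EXOC3L4 at 80. The ubiquitin enzyme list had 25 of 374 (6.68%, 4.57% to 9.68%), with the ligase scaffold CUL3 at 72 and the ligases RNF146 and RNF207 at 62. It was built from symbol prefixes, and the 25 include UBAP1 and UBASH3B, which are not ubiquitin enzymes. Translation had 16 of 242 (6.61%, 4.11% to 10.5%), with PAIP1 at 106, TARS3 at 64 and EEF2K at 61. RNA helicases and splicing factors had 11 of 178 (6.18%, 3.49% to 10.7%), namely SF3B2 at 65, SRSF7 at 64 and DDX41 at 56 as the highest. For 3 of these 4 lists the lower limit was above 3.65%, the exception being RNA helicases and splicing factors. Weaker intervals lay at 54 of the 286 vesicle traffic genes and 33 of the 374 genes of the ubiquitin enzyme list. For translation it was 25 of 242, and for RNA helicases and splicing factors 22 of 178.

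Other lists did not stand apart from all coding genes. Mitochondrial respiration had 7 of 133 genes (5.26%, 2.57% to 10.5%), headed by NDUFAF6 (80), UQCRC1 (73) and COX5A (58). Centrosome and microtubule genes had 5 of 113 (4.42%), among them MAP7 (105), KIF21A (102) and MAP4 (76). Solute carriers had 13 of 384 (3.39%), with SLC4A7 (98), SLC6A6 (66) and SLC33A2 (63) as the highest. Zinc finger transcription factors, many of which lie in clusters on chromosome 19, had 15 of 598 (2.51%, 1.53% to 4.10%), namely ZNF2 at 79 and ZNF335 and ZNF706 at 56 as the highest.

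**Figure D4:**
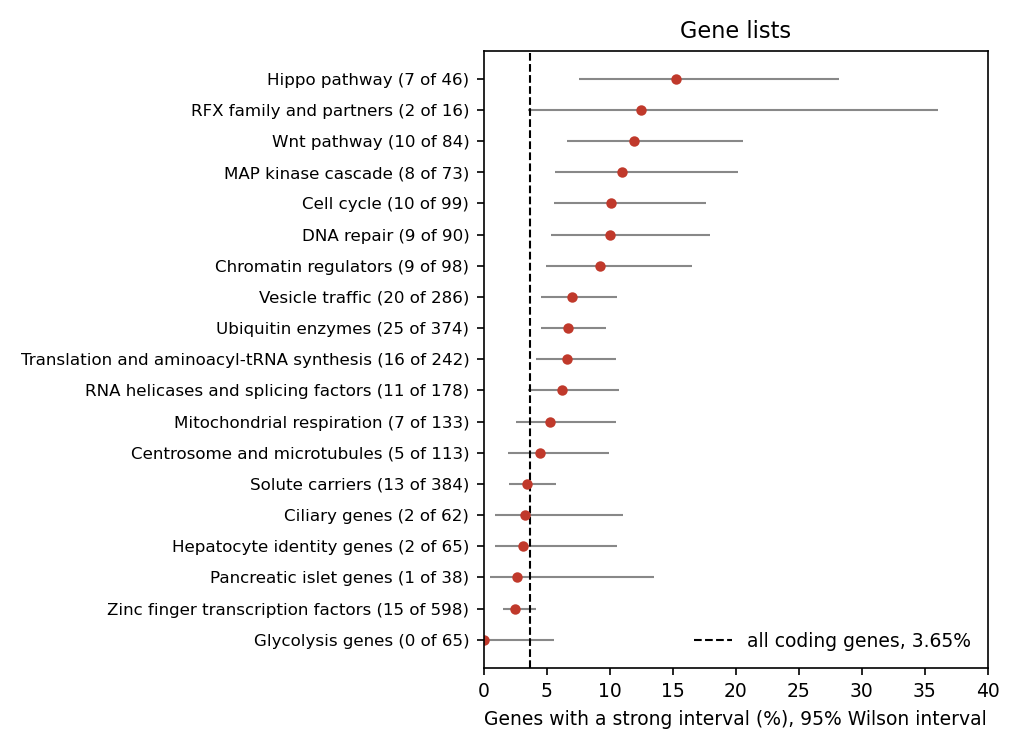
Share of the genes of each list (%) with a strong interval, with 95% Wilson intervals as bars and the number of genes in brackets. The dashed line marks all coding genes (3.65%), and the shares ran from 15.2% for the Hippo pathway to 0 for glycolysis genes.

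Lists tied to the known biology of RFX6 and of this study were small. Of 16 genes of the RFX family and its partners, 2 were members (12.5%, 3.50% to 36.0%), and both encode subunits of NF-Y, namely NFYA (62) and NFYB (53). Of 62 ciliary genes, the known targets of several RFX factors, 2 were members (3.23%, 0.889% to 11.02%), the dynein gene DNAH5 (61) and ALMS1 (45). The pancreatic islet list had 1 of 38 genes (2.63%, 0.466% to 13.5%). The hepatocyte list had 2 of 65 genes, GATA6 (43) and HPD (41), an enzyme of tyrosine breakdown, whose interval lay at the far end. Of 65 glycolysis genes, 0 were members, and the Wilson interval reached 5.58%. The study named PGAM1, ADH5 and GAPDH as glycolysis genes annotated from its peaks, and it stated no such limit of score and position. Weaker single-gene-end intervals were present at 3 of the 65, beside 1597 of all 19126 coding genes. Intervals at ends of 2 or more coding genes were present at 2 of the 65, and no share over all coding genes is given for these.

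Finally, the members were placed on chromosomes. Chromosome 15 had the largest share of coding genes with a strong interval, namely 48 of 617 (7.78%, 5.92% to 10.2%), followed by chromosome 3 with 69 of 1066 (6.47%, 5.15% to 8.11%), chromosome 12 with 64 of 1024 (6.25%, 4.92% to 7.90%) and chromosome 5 with 53 of 904 (5.86%, 4.51% to 7.59%). It was lowest on chromosome 13, with 2 of 338 genes (0.592%, 0.162% to 2.13%), chromosome 4, with 7 of 770 (0.909%, 0.441% to 1.86%), and the gene-dense chromosome 19, with 17 of 1451 (1.17%, 0.733% to 1.87%). Among intervals already at single gene ends, the strong ones made up 29.1% over all. The share was 40.1% on chromosome 3 (33.3% to 47.4%) and 40% on chromosome 15 (31.8% to 48.8%) but 16.2% on chromosome 19 (10.4% to 24.4%). It was lowest on chromosome 13, with 14.3% (4.01% to 39.9%) of only 14 intervals. Thus chromosomes 3 and 15 differed from chromosome 19 in the scores as well as in the number of intervals. The number of copies of each chromosome in these cells was not analysed here, and its part in these shares was not tested.

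**Figure D5:**
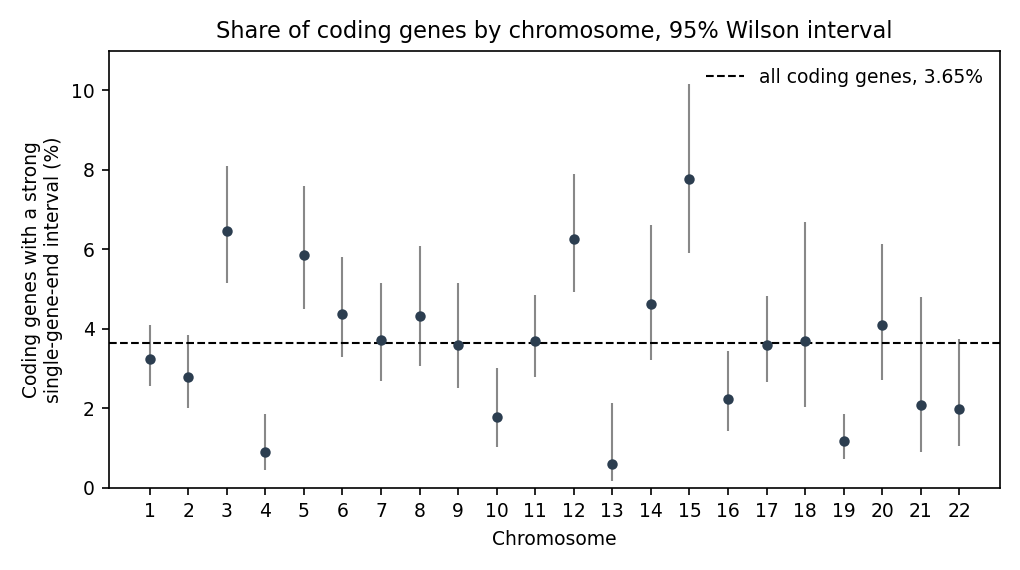
Share of coding genes (%) with a strong interval on each of chromosomes 1 to 22, with 95% Wilson intervals as bars and the share over all coding genes (3.65%) as a dashed line. Chromosome 15 had the highest share (7.78%) and chromosome 13 the lowest (0.592%).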

How the data were processed

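ChIP-seq was performed by the authors with an anti-HA antibody in MHCC-97H cells overexpressing HA-tagged RFX6, with 1 ChIP and 1 input library, and samples were grouped by title. Peaks were called with MACS2 2.1.0.2 per the submitters' processing notes. The aligner, the use of the input as a control and the treatment of reads matching several places are not given in the sources used here, and the labels and the methods name different instruments. The authors deposited a peak list with a whole-number score on each line and no header. Values of the input library were not used here, and the read depth is unknown.

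Of the 6214 lines, 1 had digit separators in its coordinates, which were removed. Identical regions were collapsed to 5022 with the highest score kept. Coordinates are given 1-based. The processing notes name GRCh37, but the coordinates match GRCh38: of 4841 intervals, 2681 (55.4%) lay within 1 kb of a GRCh38.p14 start site, compared with 172 when all were moved 20 kb down and 171 when moved 20 kb up. RefSeq tables of that assembly gave gene ends, start sites and promoter sequences, the latter for 15101 of 19126 coding genes (79.0%) and for none on chromosome 8, some genes having several start sites. The nearest was used. The tables give no exons.

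Shares are given with 95% Wilson intervals and without tests, as peaks and genes are not replicates. The members and lists were chosen with earlier results of these data known, and after the list was opened some symbol prefixes that caught unrelated genes were removed from the gene lists. The rule for named genes took the 20 highest scores, the 5 widest intervals, the 5 with most lines, genes with 2 or more members, the 3 highest of each list, the full X-box members, and for sequences some of the 20 highest that overlap a promoter window. Intervals at far ends and far from a listed start, and genes named beyond the 3 highest of a list, were chosen after their values were seen. Some genes that this rule selects are not reported here. Alternatives were a score of 50 or 35, windows of 500 bp or 2 kb, any overlap, counting genes of any type, and merging of intervals closer than 1 kb. The 2 alternatives for the background windows were chosen after seeing the data. The procedures were tested on simulated data. Python 3.11.15 was used with numpy 2.4.6, pandas 2.3.3, scipy 1.17.1 and matplotlib 3.10.9.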

Additional observations from a re-analysis of the deposited data

How the results depend on the processing

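The number of members, 725, was 421 at a score of 50 or more, and otherwise ran from 547 (exactly 1 gene of any type) to 1039 (a score of 35 or more). The median width, 354 bp, was 400 bp at a score of 50 or more, 328 bp at 35 or more and 451 bp after merging. The share listed on several lines, 25.9%, was 30.6% at a score of 50 or more and 45.1% after merging, which by construction joins lines and regions. The share at the gene start stayed between 96.6% and 97.8%, and the X-box half-site between 10.4% and 11.5% of members. The half-site was present in 12.5% of all coding windows, in 12.4% of those with 60% GC or more, and in 12.5% with 1 window per gene. No paired analysis was possible because the series holds a single ChIP library, and leave-one-out fits could not be made either. As the depth is unknown, a gene may lack a strong interval for want of reads.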

Other observations

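The TATA box (TATAAA), typical of strongly inducible promoters, was found in the windows of 23 members (5.42%, 3.64% to 8.01%), compared with 2.79% at weaker intervals (1.90% to 4.09%), 9.51% of all windows and 3.12% of windows with 60% GC or more. Its first base lay 20 to 40 bases before the start at 11 members (2.59%, 1.45% to 4.59%), at 13 weaker intervals (1.45%, 0.851% to 2.47%) and in 3.07% of all windows. At ends of 2 or more coding genes it was found there in 0 of 343 windows, for which the Wilson interval reached 1.11%. The 11 members, named after their values were seen, were SPTAN1 (80), P4HA1 (69), a subunit of the collagen prolyl hydroxylase, HEXIM1 (69), an inhibitor of the elongation factor P-TEFb, the splicing factor SRSF7 (64), the kinase MKNK2 (57), the immediate early gene FOS (56), the ribosomal protein gene RPLP0 (50), RIPK1 (47), and SKP1, ANXA2 and TNFSF9 (45 each).

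PDK1, a kinase that inactivates pyruvate dehydrogenase and thereby limits the entry of pyruvate into mitochondria, was also named after its value was seen, as it is not in the glycolysis list. Its interval ranked 21 by score, with 89 as the highest and 66 as the lowest of 4 lines. The interval (chr2:172555563-172556488, GRCh38) had a width of 926 bp and was centred at -65 bp from a listed start site.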
